A study of Mus musculus with 6 samples.

Results

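The immunoproteasome and peptide loading genes described here are Psmb8, Psmb9, Psmb10, Psme1, Psme2, Tap1, Tap2, Tapbp, B2m and Nlrc5. They were chosen by symbol for their known roles in the class I antigen presentation pathway, and all 10 were found among the 26814 gene symbols of the count table. RNA-Seq had been made from top lip tissue of adult C57BL/6J females aged 2 to 6 months, 3 wild type (WT) mice and 3 Gtf2ird1 KO mice of the Gtf2ird1 tm1Hrd line. Each mouse gave 1 paired-end library, so the spread given below is between mice, and no other treatment or batch is named. Levels are in CPM, read counts relative to library size, after TMM scaling, which corrects library sizes for differences in composition. The 15009 genes that reached 1 CPM in 3 or more libraries, all 10 genes among them, were compared with edgeR's quasi-likelihood test, and a change is called at a Benjamini-Hochberg adjusted p under 0.05 over all of them. The libraries held 20164081 to 29491767 counts on genes, and the lowest count of any of the 10 genes was 121, for Psmb8 in WT2. The targeted gene, Gtf2ird1, was higher and not lower where the label says KO (a log2 difference of 1.11 with an adjusted p of 0.0018), so directions below compare libraries by their label. Counts per gene do not separate the transcript of a targeted allele from that of an intact one. Krt5 and Krt14, keratins of the basal layer of skin and oral epithelium, stood between 3488 and 5372 CPM in all 6 libraries.

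Proteasomes cut proteins into peptides, and some of these peptides are shown to T cells on MHC class I molecules. Under interferons the catalytic subunits of the standard proteasome give way to those of the immunoproteasome, encoded by Psmb8, Psmb9 and Psmb10, and cells make more of the PA28 activator, encoded by Psme1 and Psme2. The TAP transporter, formed by Tap1 and Tap2, carries peptides into the endoplasmic reticulum, where tapasin (Tapbp) helps to load them onto a heavy chain bound to beta-2-microglobulin (B2m). Nlrc5 is a transactivator of class I genes and of several genes of this pathway.

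In GRCm38, 5 of the 10 genes lie within the major histocompatibility complex on chromosome 17. Psmb9 (chr17:34181987-34187764, minus strand) and Tap1 (chr17:34187553-34197225, plus strand) run in opposite directions and share 212 bases of exon. Psmb8 (chr17:34197721-34201454, plus strand) starts 495 bases after the end of Tap1, Tap2 (chr17:34203527-34216321, plus strand) follows 2072 bases after Psmb8, and Tapbp (chr17:33915899-33929292, plus strand) lies outside this cluster. Psme1 (chr14:55578123-55581529, plus strand) and Psme2 (chr14:55587441-55591113, minus strand) are 5911 bases apart. B2m lies on chromosome 2 (chr2:122147686-122153083, plus strand), and Nlrc5 (chr8:94434356-94527272, plus strand) and Psmb10 (chr8:105935735-105938444, minus strand) lie far apart on chromosome 8. The sources used here do not state whether reads were counted by strand. Reads from the shared bases of Psmb9 and Tap1 may therefore count for either or for neither gene, and the same holds for the 149 bases of exon that Tapbp shares with Zbtb22 on its own strand. Exons of predicted or noncoding genes on the opposite strand overlap further bases, 498 in Psmb8 and 698 in Tap2, and Tapbp shares 1053 bases with other genes in all.

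Promoter windows from RefSeq (GRCm38.p6, 250 bases before to 50 after the annotated start) were found for 8 of the 10 genes, and not for Tap2 and Nlrc5. The RefSeq start need not be the start of the gene span given above. The windows of Psmb8, Psmb9, Psme1 and Tapbp lie wholly inside those spans, so bases before the spans were not searched for these genes. They were searched on both strands for 3 motifs: the core of the interferon-stimulated response element (ISRE; GAAA, any 2 bases, GAAA), the gamma-activated site (GAS; TTCNNNGAA) and the kappa-B site by its usual consensus. At least 1 of them was found in 3 of the 8 genes. The windows of B2m, Psmb8 and Psme1 are shown because they hold these matches, and that of Tap1 because most of it is also the promoter window of Psmb9; capitals mark the matches, and each line reads 5′ to 3′ along the strand of the gene.
B2m, chr2:122147437-122147736, plus strand: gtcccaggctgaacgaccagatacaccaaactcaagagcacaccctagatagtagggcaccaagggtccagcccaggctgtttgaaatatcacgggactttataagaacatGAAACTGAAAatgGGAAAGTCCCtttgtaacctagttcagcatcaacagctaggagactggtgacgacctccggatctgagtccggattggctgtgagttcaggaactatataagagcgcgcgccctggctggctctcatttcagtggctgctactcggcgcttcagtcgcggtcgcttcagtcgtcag
Psmb8, chr17:34197945-34198244, plus strand: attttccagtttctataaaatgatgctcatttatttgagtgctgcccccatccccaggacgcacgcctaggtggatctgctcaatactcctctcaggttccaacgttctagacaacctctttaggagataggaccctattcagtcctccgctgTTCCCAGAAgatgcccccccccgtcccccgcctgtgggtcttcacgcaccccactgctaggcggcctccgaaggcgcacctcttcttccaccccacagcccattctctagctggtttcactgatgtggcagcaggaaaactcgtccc
Psme1, chr14:55578244-55578543, plus strand: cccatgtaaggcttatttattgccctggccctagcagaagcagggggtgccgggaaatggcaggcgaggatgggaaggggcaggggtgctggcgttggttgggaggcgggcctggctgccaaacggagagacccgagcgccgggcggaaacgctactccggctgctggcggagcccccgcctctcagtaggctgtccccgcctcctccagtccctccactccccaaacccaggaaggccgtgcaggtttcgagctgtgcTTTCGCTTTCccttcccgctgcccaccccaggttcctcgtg
Tap1, chr17:34187306-34187605, plus strand: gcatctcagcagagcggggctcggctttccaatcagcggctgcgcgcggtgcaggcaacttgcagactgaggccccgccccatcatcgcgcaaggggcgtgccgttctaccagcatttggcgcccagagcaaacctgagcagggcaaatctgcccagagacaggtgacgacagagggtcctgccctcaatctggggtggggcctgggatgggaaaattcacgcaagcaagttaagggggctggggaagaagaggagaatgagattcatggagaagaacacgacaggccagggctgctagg
The B2m window holds an ISRE core at -139 to -130 from the start and, 3 bases further on, a kappa-B match at -126 to -117. A GAS lies at -97 to -89 in the Psmb8 window, and the Psme1 window holds an ISRE core, on its other strand, at +10 to +19. The windows of Tap1 and Psmb9 share 275 bases on opposite strands, and neither holds any of the 3 motifs in these letters, nor do those of Psmb10, Psme2 and Tapbp. Of all 32851 mouse promoter windows of this length, 3.44% held the ISRE core, 8.3% the GAS and 8.46% the kappa-B site, so such a match is not rare. A match describes the letters of the window and shows no binding.

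All 10 genes had a positive log2 fold change in the libraries labelled KO, and 4 of them passed the test: Nlrc5, Psmb9, B2m and Tap1. None was called lower. Over all 15009 tested genes, 4.38% were called higher and 2.09% lower. In 7 of the 10 genes every KO library lay above every WT library, against 13.5% of all genes. The median log2 fold change was 0.83 for the 10 genes and -0.02 for all genes tested, of which 7208 were positive and 7801 negative. These counts describe a list that was chosen with results of these data known. With WT1, WT2, WT3 or KO2 left out, 2 of the 10 genes were called, and with KO1 or KO3 left out 5 were. Over all genes, the shares called higher were 2.12%, 3.22%, 2.17% and 1.41% without WT1, WT2, WT3 and KO2. They were 1.98% without KO1 and 16.9% without KO3.

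**Figure D1:**
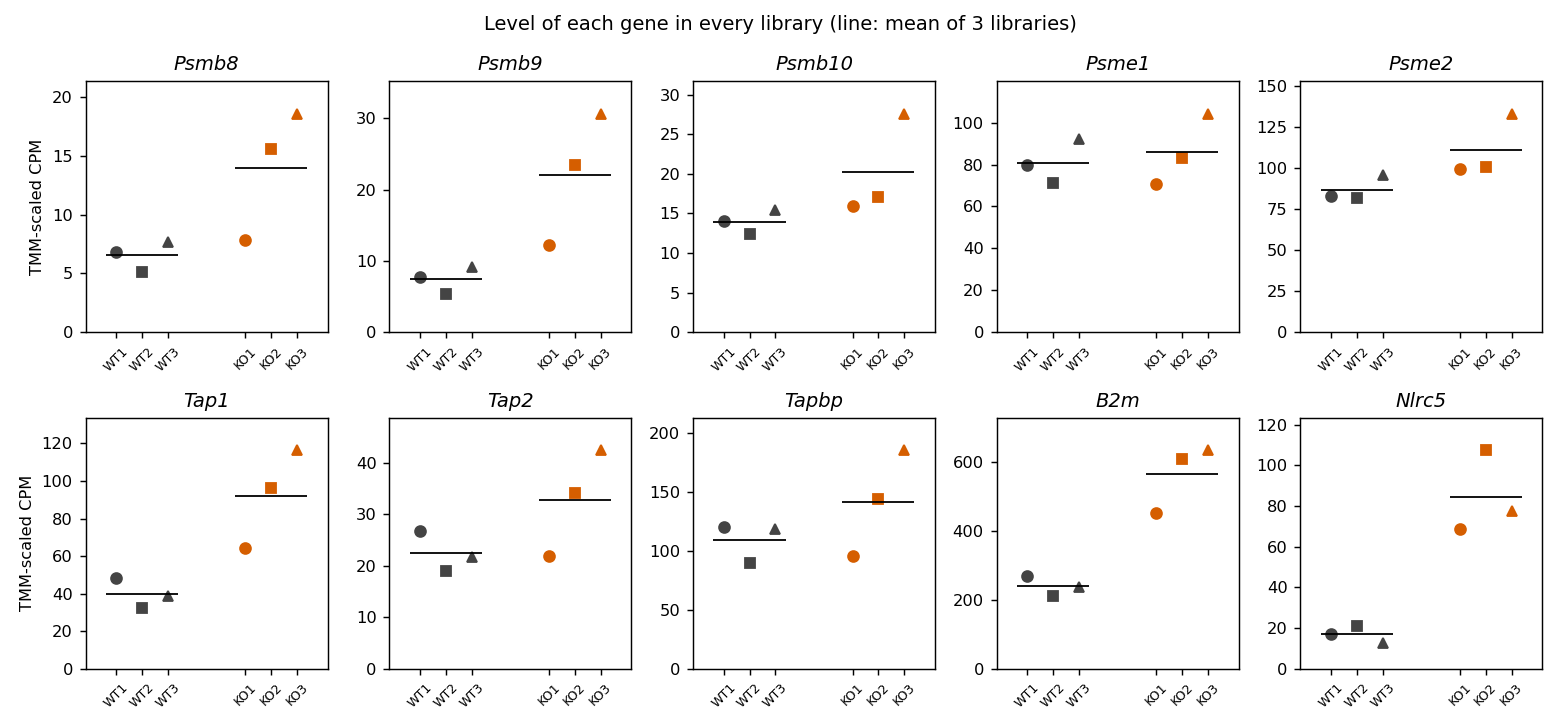
Level of each gene in every library, in TMM-scaled CPM on a linear axis that starts at 0 (grey: WT, orange: KO, line: mean of 3 libraries). In 7 panels all KO points lie above all WT points, and KO1 is the lowest KO point in all 10.

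Among the catalytic subunits, Psmb9 differed most. Psmb9, which encodes the subunit beta1i that takes the place of beta1, stood at 7.77, 5.27 and 9.13 CPM in WT1 to WT3 and at 12.2, 23.4 and 30.6 CPM in KO1 to KO3. Every KO library lay above the highest WT library, but KO1 was far nearer to the WT libraries than KO2 and KO3 were. The mean was 7.39 ± 1.96 CPM in WT and 22.1 ± 9.30 in KO (SD, n = 3), a log2 fold change of 1.58 (standard error 0.35, 95% interval 0.78 to 2.38, adjusted p = 0.0375). The call was lost without WT1, WT2, WT3 or KO2, with adjusted p between 0.0879 and 0.143, and with limma-voom at 0.0509.

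Psmb8 encodes beta5i, which replaces the chymotrypsin-like subunit beta5. It stood at 6.82, 5.14 and 7.65 CPM in WT1 to WT3 and at 7.88, 15.6 and 18.6 CPM in KO1 to KO3. The genotypes did not overlap, yet KO1 exceeded WT3 by little while KO2 and KO3 were well above it. The log2 fold change of 1.10 (standard error 0.32, 95% interval 0.37 to 1.83) did not pass the test, with an adjusted p of 0.0761. Its mean was 6.54 ± 1.28 CPM in WT and 14.02 ± 5.53 in KO (SD, n = 3). The adjusted p was 0.00698 in edgeR's exact test and 0.00858 in DESeq2's Wald test, and these tests called 7.76% and 8.93% of all genes higher. Leaving out KO1 gave an adjusted p of 0.0151 and leaving out KO3 0.0459, so the call depended on the test and on those libraries.

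Psmb10, which encodes the trypsin-like subunit beta2i, was at 14.1, 12.4 and 15.4 CPM in WT1 to WT3 and at 15.9, 17.1 and 27.6 CPM in KO1 to KO3. KO1 and KO2 lay just above the WT libraries, and KO3 stood apart from both. The log2 fold change was 0.53 (standard error 0.23), with a 95% interval from 0.000501 to 1.06 and an adjusted p of 0.169. No alternative called it, and without KO3 it was 0.25.

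The standard subunits that these proteins replace did not show such differences. Psmb5, which encodes beta5, had a log2 fold change of -0.19 (95% interval -0.68 to 0.30, adjusted p = 0.577). Psmb6, which encodes beta1, had 0.04 (95% interval -0.28 to 0.36, adjusted p = 0.854), and Psmb7, which encodes beta2, had -0.02 (95% interval -0.33 to 0.29, adjusted p = 0.936). The sign of each of these 3 values changed under at least 1 alternative, scaling among them for Psmb6 and Psmb7.

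Because both genes of a pair are counted in the same library, the ratio of their counts does not depend on how libraries are scaled. The ratio of Psmb8 to Psmb5 was 0.0918, 0.0924 and 0.0840 in WT1 to WT3 and 0.127, 0.291 and 0.237 in KO1 to KO3. That of Psmb9 to Psmb6 was 0.0677, 0.0518 and 0.0737 in the WT libraries and 0.107, 0.221 and 0.235 in the KO libraries. Psmb10 stood to Psmb7 as 0.0894, 0.0886 and 0.0932 in WT, and as 0.109, 0.122 and 0.163 in KO. In each of the 3 pairs the immunoproteasome gene made up more of the pair in every KO library than in any WT library, while it remained the one with fewer counts. On the log2 scale the differences between genotypes were 1.21 for Psmb8, 1.47 for Psmb9 and 0.51 for Psmb10, or 2.31-fold, 2.77-fold and 1.43-fold. The WT spread of the log2 ratio was small, with SDs of 0.08, 0.26 and 0.04, against 0.62, 0.63 and 0.30 in KO (n = 3). For each pair the two-sided exact permutation test gave p = 0.1, as small as a design of 3 against 3 can give, and 0.1 after adjustment over the 5 ratios computed, so it could not pass 0.05.

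**Figure D2:**
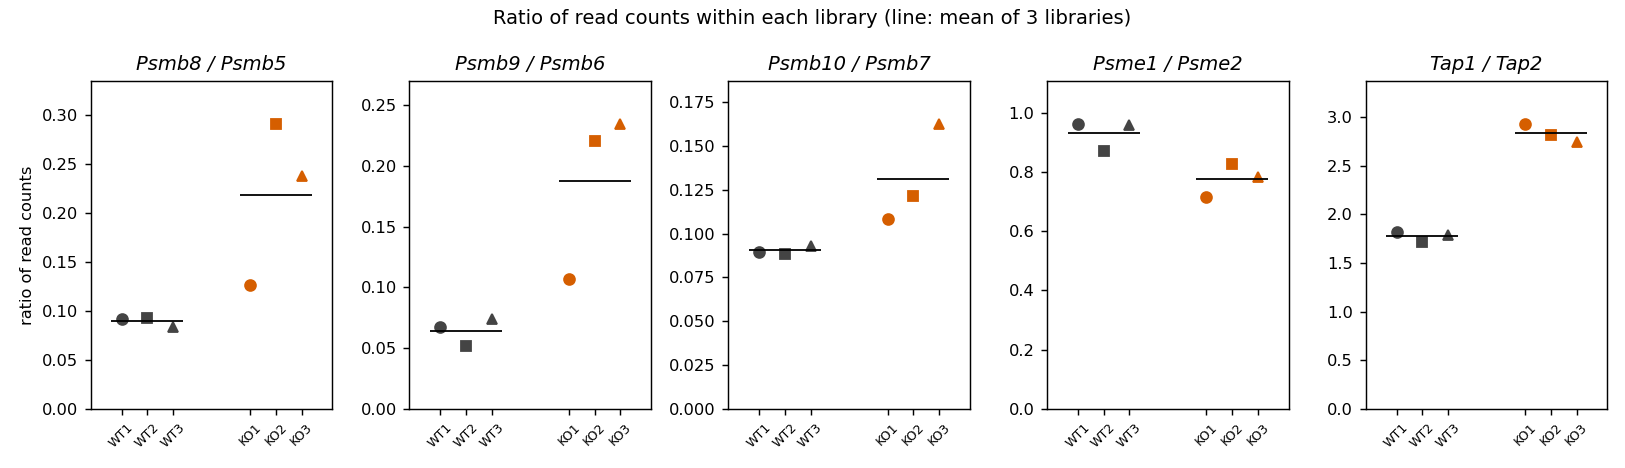
Ratio of read counts of 5 gene pairs within each library, on linear axes that start at 0 (grey: WT, orange: KO, line: mean of 3 libraries). The first 3 panels set an immunoproteasome subunit over the standard subunit it replaces, and no panel shows overlap between genotypes.

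The PA28 activator opens the proteasome core, and its alpha and beta subunits come from Psme1 and Psme2. Psme2 stood at 83.0, 81.5 and 95.9 CPM in WT1 to WT3 and at 99.4, 100.5 and 133 CPM in KO1 to KO3. All KO libraries were above all WT libraries, with KO1 and KO2 close to WT3. Its log2 fold change was 0.35 (standard error 0.16, 95% interval -0.01 to 0.72, adjusted p = 0.174), which did not pass the test. Psme1 was at 79.9, 71.0 and 92.1 CPM in the WT libraries and at 71.0, 83.2 and 104 CPM in the KO libraries, where KO1 was level with WT2, the lowest WT library. The genotypes thus overlapped, and the log2 fold change of 0.09 (standard error 0.18, 95% interval -0.31 to 0.49, adjusted p = 0.758) changed sign to -0.07 without KO3.

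The paired activator genes did not keep the same proportion. The ratio of Psme1 to Psme2 counts was 0.963, 0.871 and 0.960 in WT1 to WT3 and 0.714, 0.828 and 0.784 in KO1 to KO3. Every KO ratio was below every WT ratio, with a difference of -0.27 on the log2 scale between means of -0.10 ± 0.08 in WT and -0.37 ± 0.11 in KO (SD, n = 3; two-sided exact permutation test, p = 0.1, adjusted 0.1). Leaving out each library in turn gave differences between -0.31 and -0.21.

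The transporter subunits also moved apart. Tap1 was at 48.5, 32.4 and 38.7 CPM in WT1 to WT3 and at 64.4, 96.2 and 116 CPM in KO1 to KO3, without overlap. KO1 was again the lowest of the KO libraries. The mean was 39.8 ± 8.09 CPM in WT and 92.3 ± 26.2 in KO (SD, n = 3), a log2 fold change of 1.21 (standard error 0.24, 95% interval 0.66 to 1.76, adjusted p = 0.0266). This call was lost without WT1, WT2, WT3 or KO2, with adjusted p between 0.0604 and 0.110, and with a replicate block at 0.0528.

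Tap2 stood at 26.6, 18.9 and 21.7 CPM in WT1 to WT3 and at 21.95, 34.1 and 42.3 CPM in KO1 to KO3. KO1 fell among the WT libraries, and only KO2 and KO3 were above them. The log2 fold change was 0.55 (standard error 0.25, 95% interval -0.02 to 1.12, adjusted p = 0.180). The ratio of Tap1 to Tap2 counts was 1.82, 1.72 and 1.78 in the WT libraries and 2.93, 2.82 and 2.75 in the KO libraries. This was the tightest of the 5 ratios in the KO libraries, and KO1 did not stand nearer to WT there than KO2 and KO3 did. The log2 ratio was 0.83 ± 0.04 in WT and 1.501 ± 0.05 in KO (SD, n = 3), a difference of 0.68, or 1.60-fold (two-sided exact permutation test, p = 0.1, adjusted 0.1), and ranged from 0.65 to 0.70 when single libraries were omitted.

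Tapbp, which encodes tapasin, was at 120, 89.4 and 118 CPM in WT1 to WT3 and at 95.8, 144 and 185 CPM in KO1 to KO3. KO1 was below WT1 and WT3, so the genotypes overlapped. The log2 fold change was 0.37 (standard error 0.24, 95% interval -0.18 to 0.93, adjusted p = 0.323).

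B2m encodes the light chain that all classical class I molecules share, and had the highest level of the 10 genes. It stood at 268, 212 and 239 CPM in WT1 to WT3 and at 453, 610 and 635 CPM in KO1 to KO3. The lowest KO library was well above the highest WT library. The mean rose from 240 ± 27.9 CPM in WT to 566 ± 98.5 in KO (SD, n = 3), a log2 fold change of 1.24 (standard error 0.18, 95% interval 0.83 to 1.64, adjusted p = 0.00555). It was called in all 17 alternatives, with adjusted p up to 0.0405.

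Nlrc5 had the largest difference of the 10 genes. It stood at 16.8, 21.2 and 12.7 CPM in WT1 to WT3 and at 68.7, 107 and 77.4 CPM in KO1 to KO3. All KO libraries lay far above all WT libraries, and KO2, not KO3, was the highest. The mean was 16.9 ± 4.24 CPM in WT and 84.4 ± 20.3 in KO (SD, n = 3), a log2 fold change of 2.32 (standard error 0.24, 95% interval 1.76 to 2.88, adjusted p = 0.00116). All 17 alternatives called it, with adjusted p up to 0.0133.

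**Figure D3:**
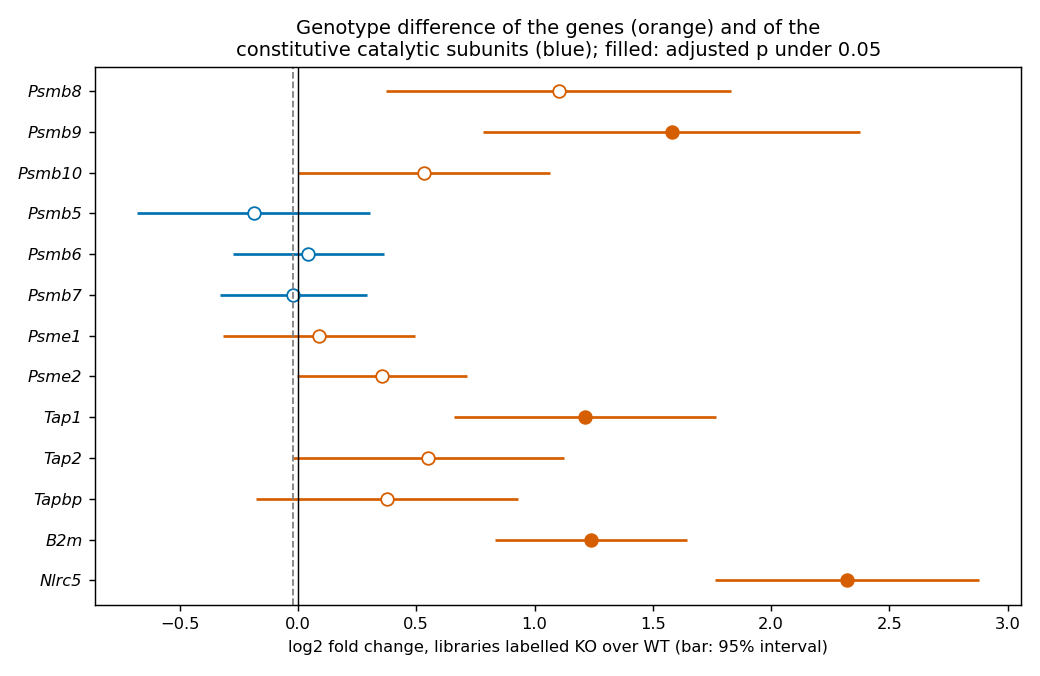
Log2 fold change of each gene (orange) and of the constitutive catalytic subunits (blue), libraries labelled KO over WT, with 95% intervals from the quasi-likelihood fit; filled points have an adjusted p under 0.05 and the dashed line is the median of all tested genes. Nlrc5, Psmb9, B2m and Tap1 are filled, and the 3 blue intervals all span 0.

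Per length of exon, in RPKM, the CPM divided by the length of the annotated exons in kilobases, B2m stood far above the others, at 279 ± 32.5 in WT and 658 ± 115 in KO (SD, n = 3). The PA28 genes came next in WT, Psme2 at 49.2 ± 4.48 and Psme1 at 36.7 ± 4.78 RPKM, followed by Tapbp at 30.1 ± 4.76 RPKM, whose spread overlaps that of Psme1. Psmb10 at 8.20 ± 0.885, Tap1 at 7.28 ± 1.48 and Tap2 at 5.92 ± 1.04 RPKM formed a middle group, each within the spread of its neighbour. Psmb9 at 2.02 ± 0.535, Nlrc5 at 1.99 ± 0.50 and Psmb8 at 1.93 ± 0.377 RPKM were lowest and could not be put in order. The standard subunits were many times above the immunoproteasome subunits in WT, with Psmb5 at 82.0 ± 19.7, Psmb6 at 60.6 ± 5.94 and Psmb7 at 45.1 ± 3.81 RPKM. In KO, Psmb9 stood at 6.03 ± 2.54, Psmb8 at 4.15 ± 1.64 and Nlrc5 at 9.94 ± 2.38 RPKM, the last within the spread of Psmb10 at 11.9 ± 3.77 and Tap2 at 8.67 ± 2.71. These levels depend on the length used. With the principal transcript of each gene, a choice made after the data had been seen, the WT level was 4.02 RPKM for Psmb8 and 5.47 for Psmb9, and 2.23 for Nlrc5. Tap1 moved to 13.5 RPKM, above Psmb10 at 10.7, Psme1 to 72.8 and Psme2 to 90.2. Psmb6 at 142 and Psmb7 at 133 RPKM were then above Psmb5 at 82.0.

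The 6 libraries ranked alike for most of the 10 genes. WT2 was the lowest of all libraries in 8 of the 10 genes, against 11.3% of all tested genes, and KO3 was the highest in 9 of them, against 13.5%. KO1 was the lowest of the KO libraries in all 10, against 33.7%. The summed level of the 10 genes was 672, 550 and 650 CPM in WT1 to WT3 and 910, 1232 and 1370 CPM in KO1 to KO3, of which B2m is the largest share. The 5 tested genes outside the lists whose centred log2 level over the 6 libraries lay nearest to the median profile of the 10 genes were D17H6S56E-5, Chst3, Zap70, Ogfr and Prr11, with root mean square distances from 0.108 to 0.141 on the log2 scale. This profile was higher in every KO library than in any WT library, so a positive log2 fold change of these 5 genes follows from the choice. D17H6S56E-5 (log2 fold change 0.86, adjusted p = 0.0438) and Chst3 (0.82, adjusted p = 0.0333) passed the test, and the other 3 did not. These calls are therefore no separate support. Both calls were lost when any WT library or KO2 was left out, with adjusted p up to 0.156. Chst3 also lost its call with the trend on gene length removed, and D17H6S56E-5 with limma-voom, library size alone and upper-quartile normalization.

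The rest of the proteasome gave no call in either direction. Of 40 other proteasome genes, all of which were tested, 28 had a positive and 12 a negative log2 fold change, with a median of 0.09. In the quasi-likelihood test 12 had an unadjusted p under 0.05, against 29.6% of all tested genes in either direction. All 12 were higher in KO, and 9 of them were genes of the 19S regulatory particle. The 18 genes of this particle, which unfolds proteins for the core, had a median log2 fold change of 0.34. Of these 18, 10 had no overlap between genotypes and lay higher in KO, against 13.5% of all tested genes. They include Psmd2, a scaffold subunit (235 ± 33.0 CPM in WT, 324 ± 18.9 in KO, SD, n = 3; log2 fold change 0.46, adjusted p = 0.0900). Psmc5, an ATPase subunit, had a log2 fold change of 0.24 (adjusted p = 0.204). KO1 was the lowest of the KO libraries in 3 of these 18 genes, where it was in all 10 of the immunoproteasome and peptide loading genes. The 11 other subunits of the 20S core had a median of 0.09, with Psma6 at 0.09 (adjusted p = 0.634) and Psmb4 at -0.17 (adjusted p = 0.570). The 3 genes of other activators and the inhibitor had a median of -0.03, with Psme3, which forms the nuclear relative of PA28, at -0.03 (adjusted p = 0.930) and Psme4 at 0.51 (adjusted p = 0.254). The 5 assembly chaperones had a median of 0.02, with Pomp, the proteasome maturation protein, at 0.02 (adjusted p = 0.945) and Psmg4 at -0.37 (adjusted p = 0.291). The signs of Psme3 and Pomp changed under another scaling. The exact test called 3 of the 40 genes higher, against 7.76% of all genes, and DESeq2 8, against 8.93%. Once KO3 was left out, the quasi-likelihood test called 10, against 16.9% of all genes.

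**Figure D4:**
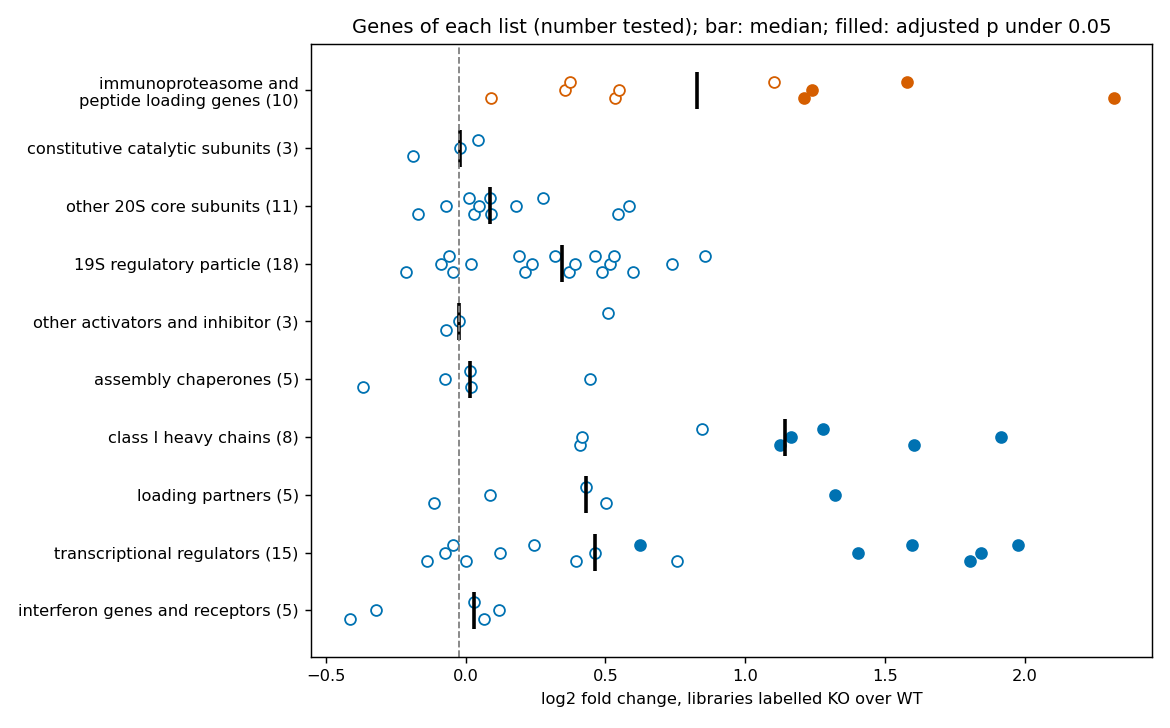
Log2 fold change of each tested gene of the 10 genes (orange) and of the lists they were set beside (blue), libraries labelled KO over WT, with the number tested in brackets; bars are medians, filled points have an adjusted p under 0.05 and the dashed line is the median of all tested genes. Filled points occur among the 10 genes, class I heavy chains, loading partners and regulators, and in none of the 5 lists of other proteasome genes or among interferon genes and receptors.

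B2m pairs with class I heavy chains, classical and non-classical, and 8 genes for them were tested. All 8 were positive, and 5 were called higher, against 4.38% of all tested genes. The median log2 fold change of the 8 was 1.14. H2-Q7 had the largest difference, with 17.7 ± 5.44 CPM in WT and 66.9 ± 21.9 in KO (SD, n = 3; log2 fold change 1.92, adjusted p = 0.00907). H2-Q6 (1.60, adjusted p = 0.0241), H2-T22 (1.28, adjusted p = 0.0189) and H2-Q4 (1.16, adjusted p = 0.00331) also passed, and so did the classical gene H2-K1 (1.12, adjusted p = 0.0241), which is named after its values were seen. Heavy chain genes are near-identical in sequence over long stretches, so the counts of single ones are uncertain. KO1 was the lowest of the KO libraries in all 8. H2-Q7 lost its call without WT2, H2-Q6 without WT2, WT3 or KO2, and H2-T22 and H2-K1 without any WT library or KO2, with adjusted p up to 0.101.

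Of 5 loading partners, Erap1, the aminopeptidase that trims peptides in the endoplasmic reticulum, was called higher, with 15.8 ± 3.67 CPM in WT and 39.5 ± 9.83 in KO (SD, n = 3; log2 fold change 1.32, standard error 0.24, adjusted p = 0.0184). Erap1 overlaps Cast on the opposite strand, and its call was lost without WT1, WT3, KO1 or KO2, with adjusted p up to 0.0985. The other 4 partners lay between -0.11 and 0.50 and did not pass. Thus 1 of the 5 was called higher, against 4.38% of all tested genes. In 3 of the 5 every KO library was above every WT library, against 13.5%.

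Among 15 regulators of class I and immunoproteasome transcription, 6 were called higher, against 4.38% of all tested genes. They include transcription factors that carry interferon signals: Irf7 (log2 fold change 1.98, adjusted p = 0.00864), Irf9 (1.84, adjusted p = 0.00119) and Stat2 (1.60, adjusted p = 0.0121). Ciita, the class II transactivator and a relative of Nlrc5 (1.41, adjusted p = 0.0031), and Jak1, a kinase of interferon receptors (0.62, adjusted p = 0.0482), also passed, and are named after their values were seen. Irf1, at 11.9 ± 0.900 CPM in WT and 16.4 ± 2.1 in KO (SD, n = 3), had no overlap between genotypes but did not pass (log2 fold change 0.46, adjusted p = 0.109). Without WT1 or WT3 the calls of Irf7 and Stat2 were lost, with adjusted p up to 0.0721. Jak1 kept its call in 8 of 17 alternatives and lost it whenever a library other than KO3 was left out, with adjusted p up to 0.184.

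Of 8 interferon genes and receptors listed, 5 passed the filter and none was called by edgeR's quasi-likelihood test, nor had any an unadjusted p under 0.05. The receptor chains of interferon gamma were on the lower side in KO, Ifngr1 at -0.42 (adjusted p = 0.172) and Ifngr2 at -0.32 (adjusted p = 0.240). The transcript of interferon gamma itself, Ifng, had 0 counts in all 3 WT libraries and in KO1, 3 counts in KO2 and 1 in KO3, so no difference was detectable at this depth, where 3 counts are 0.0986 to 0.154 CPM. Ifnk, the interferon of keratinocytes, did not pass the filter and was not tested. It had 1, 4 and 8 counts in WT1 to WT3 and 14, 22 and 10 counts in KO1 to KO3, or 0.036, 0.170 and 0.360 CPM against 0.716, 0.723 and 0.457 CPM, so that every KO library was above every WT library. Over all 33 tested class I partners and regulators, 12 were called higher and 0 lower, against 4.38% and 2.09% of all tested genes. The count called higher was 5 without WT1, 7 without WT2, 4 without WT3 and 6 without KO2. Over all genes the shares called higher there were 2.12%, 3.22%, 2.17% and 1.41%. Without KO3 the count was 16, against 16.9% of all genes, and 1 was called lower, against 16.2%.

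Markers of the cell types of the lip differed between the libraries. In bulk tissue, a higher level through more cells of a type cannot be told apart from more RNA per cell. The summed level of 16 leukocyte markers was 454 to 500 CPM in WT and 329, 369 and 530 CPM in KO1, KO2 and KO3, and of the 12 that were tested 7 were positive, 5 negative and 0 called by edgeR's quasi-likelihood test, with 5 at an unadjusted p under 0.05, against 29.6% of all genes. Single markers went different ways. In 4 of the 12, every KO library was above every WT library, against 13.5% of all tested genes. Named after their values were seen, these were Cd4 (log2 fold change 1.01, adjusted p = 0.0784), Ptprc (0.67, adjusted p = 0.115), Cd52 (0.60, adjusted p = 0.0992) and Itgax (0.56, adjusted p = 0.138). Lyz2, a macrophage marker, had the highest level of the list and so the largest share of its sum. It lay lower in every KO library than in any WT library (log2 fold change -0.40, adjusted p = 0.159), as did 2711 of all 15009 tested genes. Markers of cytotoxic T cells, natural killer cells and B cells, Cd8a, Nkg7 and Cd79a, were at most at 1.01 CPM in every library and were not tested. Cd8a had 7, 0 and 8 counts in WT1 to WT3 and 10, 12 and 14 in KO1 to KO3. In CPM every KO library was above every WT library for Cd8a, while Nkg7 and Cd79a overlapped between genotypes. The 4 dendritic and Langerhans cell markers summed to 553 to 726 CPM in WT and to 530, 783 and 1092 CPM in KO1, KO2 and KO3. Cd74 made up the largest share of this sum. Of these 4, Cd207, the langerin gene of Langerhans cells, was called higher, at 3.16, 4.29 and 3.55 CPM in WT1 to WT3 and 13.0, 13.3 and 12.4 CPM in KO1 to KO3 (log2 fold change 1.81, adjusted p = 0.000932). Both sums were lowest in KO1 and highest in KO3 among the KO libraries, as were 9 of the 10 genes and 27.5% of all tested genes. In KO1 both sums were the lowest of all 6 libraries. Cd4, Ptprc, Cd52, Itgax, Cd207 and 7 of the 10 genes were above all WT libraries there. For these genes this follows from their lack of overlap between genotypes and is no separate observation. The part of these cells in the result was not tested.

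The 6 keratinocyte markers summed to 25601 to 29338 CPM in WT and 37714 to 50825 CPM in KO. None was called by edgeR's quasi-likelihood test, and 2 had an unadjusted p under 0.05, a share near the 29.6% of all genes. These were Krt1, at a mean of 8019 CPM in WT and 18219 in KO, and Krt10, at 8715 and 13574 CPM. The log2 fold changes of Krt5, Krt14, Trp63 and Perp lay between -0.04 and 0.15, so the sum follows Krt1 and Krt10. Skeletal muscle markers, 5 in all, summed to 7097 to 9555 CPM in WT and 3033 to 5942 CPM in KO. All 5 lay lower in every KO library than in any WT library, as did 2711 of all 15009 tested genes. Their median log2 fold change was -1.01, and all 5 had an unadjusted p under 0.05 in the quasi-likelihood test. Of these, only Tnnt3 was called lower (log2 fold change -1.01, adjusted p = 0.0397), against 2.09% of all tested genes. This call was lost with a replicate block and without any library but KO3, with adjusted p up to 0.203. Fibroblast markers summed to 6268 to 8235 CPM in WT and 2668, 3425 and 6586 CPM in KO1, KO2 and KO3. KO3 was thus the KO library nearest to WT in muscle and fibroblast markers, while it was the highest in 9 of the 10 immunoproteasome and peptide loading genes. What share of the differences in these genes goes with composition was not tested.

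**Figure D5:**
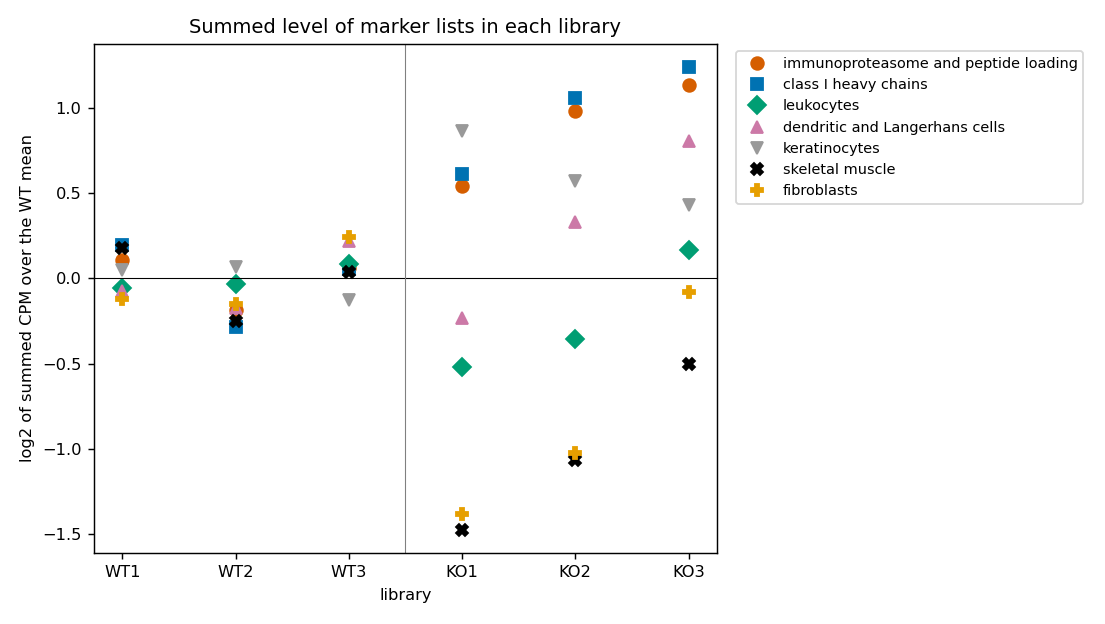
Summed CPM of the 10 genes, of the class I heavy chains and of the marker lists of 5 cell types in each library, as the log2 of its ratio to the WT mean. The sums of the 10 genes and of the heavy chains lie above 0 in all KO libraries, and those of skeletal muscle and fibroblasts below 0.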

How the data were processed

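Lip RNA of each mouse gave 1 library. The authors mapped the paired-end reads to GRCm38 with TopHat2 2.0.8 and Bowtie2 2.1.0 and deposited whole-number counts per gene symbol from HTSeq-count, without normalization; the strand setting and counting mode are not given in the sources used here. From these counts, the 15009 genes that reached 1 CPM in 3 or more libraries (99.8% of the counts) were TMM-scaled and compared in R 4.3.3 with edgeR 4.0.16 (glmQLFit with legacy=FALSE, glmQLFTest), adjusted by Benjamini-Hochberg at 0.05. Ratios used log2 counts plus 0.5 and exact permutation tests. Alternatives used DESeq2 1.42.0 and limma 3.58.1, other scalings, filters and a length correction, a block for replicate number, and each library left out. The fit was tested on simulated data. Positions came from GENCODE, which held 24858 of the 26814 symbols. Figures used matplotlib 3.10.9 in Python 3.11.15. The limit of 3 counts covers counting error only, and the intervals of log2 fold changes, from the fit, include the spread between mice.

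The 10 genes and the lists set beside them were chosen with earlier results of these data known. Named were the 10 genes, Psmb5, Psmb6, Psmb7 and Gtf2ird1; of each list the members past the threshold, or the 4 with the largest log2 fold change if more than 4 passed, or the 2 with the highest level per length if none passed; and the 5 genes nearest to the median profile. Some single genes of the lists are not reported here.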

Additional observations from a re-analysis of the deposited data

How the results depend on the processing

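Across 17 alternatives, B2m and Nlrc5 were called in all, Psmb9 and Tap1 in 12 each and Psmb8 in 4, and the other 5 genes in none. The number of the 10 genes called higher ranged from 2 to 5 on leaving out single libraries, and their median log2 fold change between 0.59 and 1.14. The other proteasome genes had 0 calls higher, but 3 with edgeR's exact test, 8 with DESeq2, 1 without a filter, 1 with the trend on gene length removed, 5 at an adjusted p under 0.1, and 0 to 10 with each library left out. Class I partners and regulators had 4 to 16 calls higher and 0 to 1 lower with each library left out. Over all genes, 7.76% were called higher with the exact test, 8.93% with DESeq2, 3.41% without a filter and 4.96% with the trend removed. Leaving out single libraries gave 1.41% to 16.9%. The cause of the changes between alternatives was not tested.

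Of the genes followed across the alternatives, signs changed only for some whose log2 fold change lay between -0.19 (Psmb5) and 0.09 (Psme1). Psmb5 was at 0.019 with the length trend removed, and with upper-quartile normalization Psmb6 was at -0.010 and Pomp at -0.039. With DESeq2, its size factors, no filter and the length trend removed, Psmb7 was at 0.023, 0.0078, 0.032 and 0.033, and Psme3 at 0.019, 0.0024, 0.028 and 0.048. With each library left out the ranges were -0.066 to 0.27 for Psme1, -0.037 to 0.17 for Psmb6, -0.099 to 0.092 for Psmb7, -0.16 to 0.12 for Psme3 and -0.017 to 0.12 for Pomp.

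Replicate numbers did not pair the libraries: across genes, deviations from the genotype means correlated at -0.19, 0.31 and 0.33 for same-numbered libraries, and WT1 and WT2 correlated best with a KO library of another number. With a replicate block, 3 of the 10 genes, 11 class I partners and regulators and 0 other proteasome genes were called higher, and the median of the 10 genes was 0.78. The calls lost with the block were those of Tap1 (1.19, adjusted p = 0.0528), Jak1 (adjusted p = 0.0618), Tnnt3 (adjusted p = 0.0573) and D17H6S56E-5 (adjusted p = 0.0630), among the genes named. Counts of genes called overall were 580 higher and 217 lower with the block, against 657 and 314 without. Without KO replicate 3, 2496 and 2395 genes were called, and DESeq2 called 1511 higher.

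With 3 libraries per genotype, an exact test of a single ratio cannot reach 0.05. Psmb8 and Psmb9 rest on the fewest counts, from 121 per library upward.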
